A study of Mus musculus with 6 samples.

Results

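The receptors of the IL-1 and IL-18 cytokines and their shared adaptor, Myd88, were read in 2 kinds of regulatory T cells (Treg), Foxp3-expressing CD4 T cells that restrain immune responses. The set was a list of 8 genes, and every probe set that the platform annotation assigned to a listed symbol was taken. This gave 14 probe sets of 7 genes, out of 34945 probe sets of 18193 genes with a single symbol. The remaining listed gene, Il1rl1, which encodes the IL-33 receptor chain ST2, was not analysed here.

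RNA was hybridised to 6 one-colour Affymetrix mouse arrays, 3 per group. The first group was induced Treg (iTreg) from TBmc mice on a BALB/c background with a Foxp3-GFP reporter, gated as Nrp-negative after 1 week of oral ovalbumin at 1%. TBmc mice have a monoclonal T cell receptor, against ovalbumin, and a monoclonal B cell receptor, on a background that cannot rearrange others. The other group was total Treg of wild-type (WT) BALB/c mice with the same reporter, for which the labels name no feeding. Both came from mesenteric lymph nodes, and all mice were 4 to 6 weeks old. The T cell receptor, the genotype, the feeding and the Nrp gate differ together between the groups, so their parts in any difference cannot be told apart. The labels of 1 array in each group leave doubts: the strain entry of iTreg replicate 1 names neither TBmc nor the reporter, and WT replicate 1 carries the Nrp-negative cell type despite its title of total Treg. Whether the replicates are separate mice is not stated in the labels, and p-values therefore measure array-to-array spread only, which could be technical.

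The deposited signals shared a trimmed mean of 150.0 on each array, with medians from 24.3 to 27.5 in iTreg and from 21.1 to 32.3 in WT Treg. Probes for bacterial transcripts that had not been spiked in gave the background: 27 such probe sets reached a signal of at most 28.5 on any array. Values up to that level are called within the control range below. T cell genes were far above it, Cd3e at 3389, 4122 and 6949 in iTreg, against 2865, 3592 and 5005 in WT Treg, as were the Treg genes Il2ra, Ctla4, Ikzf2 and Tnfrsf18 on every array. Il2ra, Ikzf2 and Tnfrsf18 were lower on every iTreg array than on any WT array, as in 7.78% of all genes tested. Their means were 1872, 1481 and 987 in iTreg, against 4684, 2170 and 1940 in WT Treg, while Ctla4 overlapped. None of these had an adjusted p under 0.05 in the comparison below. Foxp3 itself, read by a single dim probe set, was at 15.6 to 54.6 in iTreg and 9.16 to 45.7 in WT Treg. Of the markers of other cells, Ms4a1, Cd22 and Blk of B cells, Csf3r, Cxcr2 and Mpo of neutrophils, Cpa3, Fcer1a, Ms4a2, Kit and Mcpt8 of mast cells and basophils, and Ncr1, Klre1 and Klra8 of natural killer cells lay within the control range on all arrays. Others of the same lists did not: Cd79b of B cells was above it on 4 arrays, at 17.8 to 83.7 in iTreg and 43.3 to 58.7 in WT Treg, and Cd79a on 2. Tpsb2 of mast cells was above it on 3, at 42.2, 28.3 and 40.5 in iTreg, against 34.6, 21.4 and 3.56 in WT Treg. S100a9 of neutrophils was above it on all iTreg arrays, at 51.8, 78.5 and 33.0, and on no WT array. Prf1 of the natural killer list was at 257 to 486 over the 6 arrays. The CD8 T cell markers Cd8a and Cd8b1 were above it on every array. The part of such cells in the signals of the family was not tested.

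Receptors of this family work in pairs. A chain that binds the cytokine joins an accessory chain, and the cytosolic TIR domains of both recruit Myd88, which assembles Irak kinases and Traf6 and leads to NF-kB and MAP kinase activity. Il1r1 binds IL-1 and Il1rl2 binds IL-36, and these chains, like ST2, share the accessory chain Il1rap, while Il18r1 pairs with Il18rap for IL-18. Il1r2 binds IL-1 but has no TIR domain and acts as a decoy. In the gut and its lymph nodes IL-18 and IL-33 are known to act on Treg, and IL-1 is known to favour Th17 cells.

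Il18r1, Myd88 and 1 of the 5 probe sets of Il1rap were above the control range on all 6 arrays, and none of the 5 genes bright enough to be tested differed between iTreg and WT Treg beyond the spread of the arrays. The brighter probe set of Il18rap was above the range on 5 arrays and Il1r2 on 2. Il1r1 was within it on every array, and Il1rl2 on all but 1. Of the 14 probe sets, 3 were above the range on all 6 arrays, 6 on some of them and 5 on none. Over all 34945 probe sets these shares were 41.4%, 21.6% and 37.0%. The range rests on 1 array: without WT replicate 2 its upper end was 17.7 and 5 member probe sets lay above it on all remaining arrays, the further ones being the brighter probe set of Il18rap and another of Il1rap. With each array set against its own highest control the count was also 5, with Il18rap and Il1r2 added.

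For the comparison, signals were put on the scale log2(signal + 16), which understates differences of low signals, and probe sets with a mean in the lower 40% were left out. Of the members, 8 probe sets of 5 genes were tested, among 20967 probe sets in all. limma called 0 of the 8 at a Benjamini-Hochberg adjusted p under 0.05, against 0.0191% of all probe sets tested, and 0 of the 8 had an unadjusted p under 0.05, against 6.77%. In 0 of the 8 did the groups part without overlap, against 12.0% of all probe sets. The differences, iTreg minus WT Treg, were positive in 4 and negative in 4, where all probe sets gave 46.1% positive and 53.9% negative. By gene, with the brightest probe set of each, 5 members were tested, 3 with a positive and 2 with a negative difference, against 47.2% and 52.8% of all genes tested. In bulk samples, fewer cells of a type and less RNA per cell cannot be told apart.

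**Figure D1:**
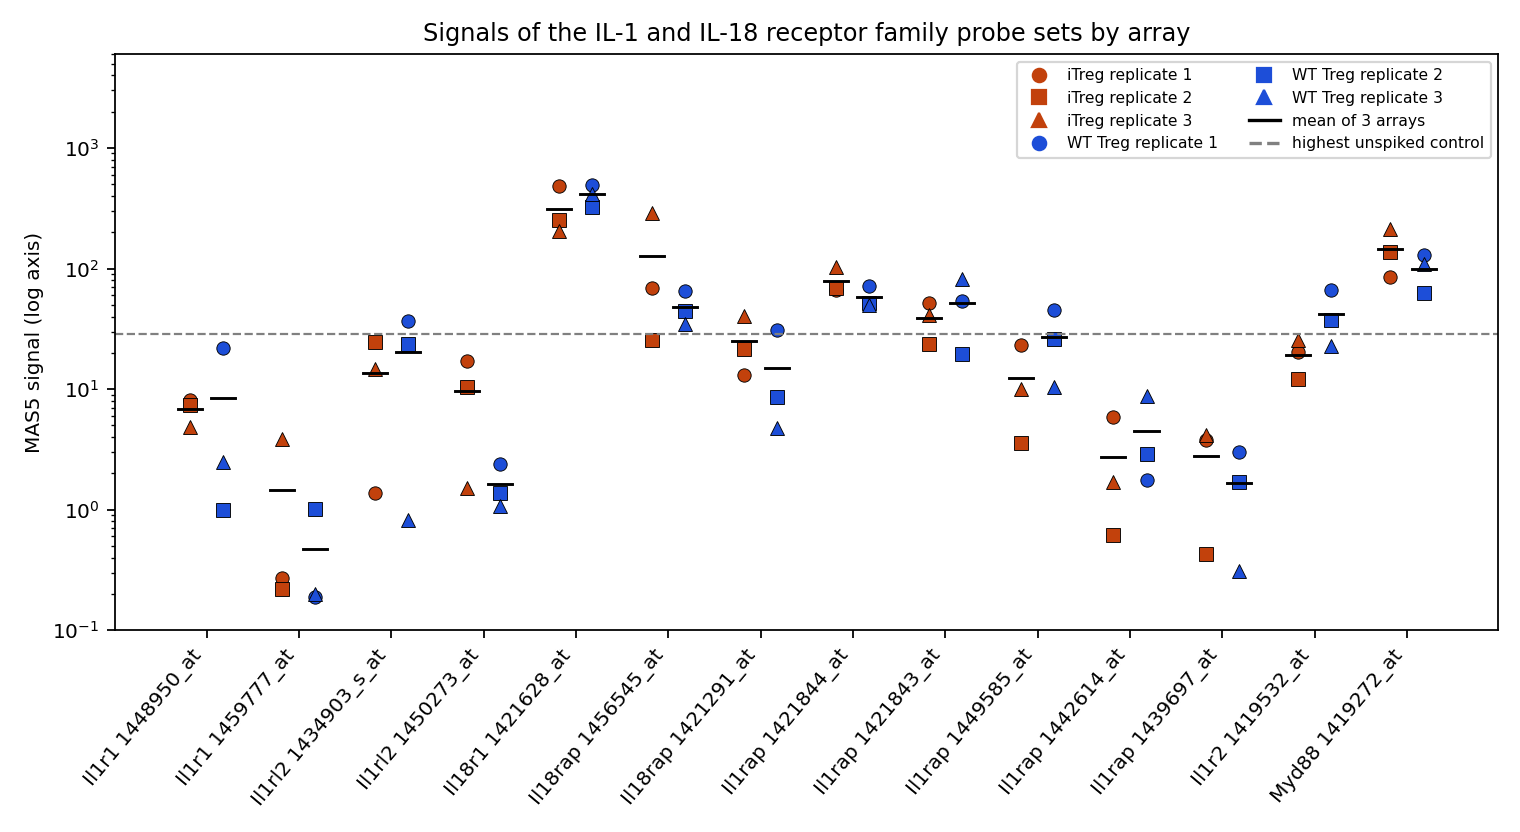
MAS5 signal on a log axis for the 14 probe sets of 7 genes, with iTreg arrays in orange at left and WT Treg arrays in blue at right of each pair. Bars are means of 3 arrays and the dashed line marks the highest unspiked control, 28.5; Il18r1, Myd88 and the brightest Il1rap probe set lie above it on all 6 arrays.

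Il18r1, the chain that binds IL-18, had signals of 482, 252 and 204 in iTreg replicates 1, 2 and 3, against 492, 325 and 419 in WT Treg. Every array lay far above the control range, and the groups overlapped because iTreg replicate 1 was as high as the WT arrays while the other iTreg arrays were below all of them. The mean was 313 ± 149 in iTreg and 412 ± 83.8 in WT Treg (SD, n = 3 each). Its log2 difference was -0.45 with a standard error of 0.37 and a 95% interval from -1.25 to 0.34 (limma adjusted p = 0.870). Without iTreg replicate 1, one of the arrays with a label doubt, the log2 difference was -0.80 (limma adjusted p = 0.680 in the fit by gene). Without iTreg replicate 3 it was -0.21, so its size moved with these arrays.

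Il18rap, the accessory chain of the IL-18 receptor that is needed for signalling, was read by 2 probe sets. The brighter one, 1456545_at, had signals of 69.6, 25.7 and 289 in iTreg replicates 1, 2 and 3, against 64.8, 44.0 and 34.4 in WT Treg. A single array, iTreg replicate 3, stood above all others, and iTreg replicate 2 was the lowest of the 6 and within the control range. The log2 difference was 0.72 with a standard error of 0.61 and an interval from -0.61 to 2.04 (limma adjusted p = 0.875). Without iTreg replicate 3 it was -0.07, and without both replicate 3 arrays -0.22, so the sign rests on that array. Its other probe set, 1421291_at, was at 13.1, 21.5 and 40.6 in iTreg, against 31.2, 8.55 and 4.76 in WT Treg, above the control range on 1 array of each group and again highest in iTreg replicate 3.

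Array iTreg replicate 3 stood apart in other respects, and both replicate 3 arrays did so in their hybridisation controls. Their spiked hybridisation controls averaged 12.9 on the log2 scale in iTreg and 12.9 in WT Treg, against 12.4 and 12.6 on the other iTreg arrays and 12.1 and 12.3 on the other WT arrays. The log2 ratio of 3′ to 5′ Gapdh signals, which grows with RNA degradation, was highest on iTreg replicate 3 at 3.38, against 3.06 and 2.48 on the other iTreg arrays and 2.28 to 2.53 in WT Treg. On the same array Ly96, a partner of Tlr4, was at 237 and the dendritic cell marker Zbtb46 at 186, where the other iTreg arrays had at most 29.0 and 63.6 and the WT arrays at most 21.2 and 84.6. The other 4 dendritic cell markers, Itgax, Flt3, Xcr1 and Siglech, were within the control range on every array and at most 7.11 on iTreg replicate 3. Of the natural killer markers, Ncr1, Klre1 and Klra8 were within the control range on every array, at most 10.7 in iTreg and 9.69 in WT Treg. Prf1 was at 257 on iTreg replicate 3, its lowest value of the 6. Of the 2 CD8 T cell markers, Cd8b1 was at 70.1 on that array, against 69.6 and 132 on the other iTreg arrays and 33.7 to 63.3 in WT Treg, while Cd8a was at 33.5 on that array, against 30.9 and 93.0 on the other iTreg arrays and 39.2 to 43.8 in WT Treg. The part of the hybridisation controls, the Gapdh ratio and other cell types in the value of Il18rap was not tested.

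Il1r1, the signalling receptor for IL-1, did not leave the control range on any array. Its brighter probe set was at 8.11, 7.43 and 4.83 in iTreg, against 22.0, 0.998 and 2.48 in WT Treg, and the other at most 3.88 in iTreg and 1.02 in WT Treg. Such values do not show that the gene is silent, only that they were no higher than the highest unspiked control, which lay on WT replicate 2. On WT replicate 1 itself the highest such control was 10.9, below the 22.0 of Il1r1. Il1rl2, the IL-36 receptor chain, was at 1.38, 24.6 and 14.7 in iTreg, against 36.4, 23.6 and 0.823 in WT Treg on probe set 1434903_s_at, which may match other transcripts. Only WT replicate 1 was above the range. Its other probe set was at 17.0, 10.3 and 1.50 in iTreg and at most 2.41 in WT Treg, all within the range. Neither gene was bright enough to be tested. With no filter, this last probe set had a log2 difference of 0.49 with an interval from 0.0068 to 0.98 (limma adjusted p = 0.841), on signals that were all within the control range.

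Il1r2, the decoy receptor for IL-1 that is known from activated Treg and from neutrophils, had the smallest p of the 8 tested probe sets. Its signals were 20.2, 12.0 and 25.5 in iTreg, against 66.0, 37.1 and 22.8 in WT Treg. All iTreg arrays were thus within the control range and WT replicates 1 and 2 above it, while WT replicate 3 lay below iTreg replicate 3, so the groups overlapped. The mean was 19.2 ± 6.77 in iTreg and 42.0 ± 22.0 in WT Treg (SD, n = 3 each). The log2 difference was -0.67 with a standard error of 0.40 and an interval from -1.53 to 0.19 (limma adjusted p = 0.808). Its size depended on the arrays, with -0.38 without WT replicate 1, -0.92 without WT replicate 3 and -1.05 without both replicate 3 arrays. It also depended on the pseudocount, with -1.02 at a pseudocount of 1 and -0.33 at 64. Neutrophil markers went both ways by mean, but only S100a9 and S100a8 left the control range on any array. For both, every iTreg array was above every WT array, as in 5.10% of all genes tested (limma adjusted p = 0.172 and 0.632). Both passed the filter on low signals only through their iTreg arrays. S100a9 was at 51.8, 78.5 and 33.0 in iTreg, against 13.1, 1.37 and 0.808 in WT Treg. By mean, S100a8 and Cxcr2 were also higher in iTreg, at 42.0 against 7.92 and 7.45 against 1.79. Csf3r and Mpo were lower in iTreg, with means of 1.52 against 5.69 and 5.10 against 8.44. Cxcr2, Csf3r and Mpo were within the control range on every array. The 5 measured neutrophil markers summed to 65.6 to 180.3 in iTreg and 20.9 to 36.2 in WT Treg. Of the 6 markers of macrophages and monocytes, none was above the range on all arrays, and they summed to 101.1 to 179 in iTreg and 60.1 to 109.7 in WT Treg. Their part in the signal of Il1r2 was not tested.

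Il1rap, the accessory chain shared by the receptors for IL-1, IL-33 and IL-36, had 5 probe sets that did not go one way. The brightest, 1421844_at, was at 66.3, 68.5 and 103 in iTreg, against 71.6, 51.9 and 50.2 in WT Treg. Only iTreg replicate 3 was above all WT arrays, and without it the log2 difference was 0.19. The mean was 79.3 ± 20.6 in iTreg and 57.9 ± 11.9 in WT Treg (SD, n = 3 each), a log2 difference of 0.36 with an interval from -0.49 to 1.21 (limma adjusted p = 0.895). Probe set 1421843_at was at 51.8, 23.9 and 40.8 in iTreg, against 53.5, 19.6 and 81.3 in WT Treg, which differ by -0.22 on the log2 scale (limma adjusted p = 0.952). Probe set 1449585_at was at 23.3, 3.55 and 10.0 in iTreg, against 45.2, 26.1 and 10.4 in WT Treg, which differ by -0.59 on the log2 scale (limma adjusted p = 0.840), with 1 WT array above the control range. The other 2 probe sets stayed under 8.8 on every array. The mean over all 5 gave a log2 difference of -0.10, the opposite sign to the brightest, so no direction can be given for the gene.

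Myd88, the adaptor that all signalling members use, was at 84.4, 136 and 215 in iTreg, against 129, 62.7 and 108 in WT Treg. All arrays were above the control range, and the groups overlapped, with iTreg replicate 3 highest and WT replicate 2 lowest. The mean was 145 ± 65.5 in iTreg and 99.97 ± 33.9 in WT Treg (SD, n = 3 each). The log2 difference was 0.44 with a standard error of 0.43 and an interval from -0.50 to 1.38 (limma adjusted p = 0.883). It stayed positive without each single array, from 0.14 without iTreg replicate 3 to 0.74 without iTreg replicate 1.

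**Figure D2:**
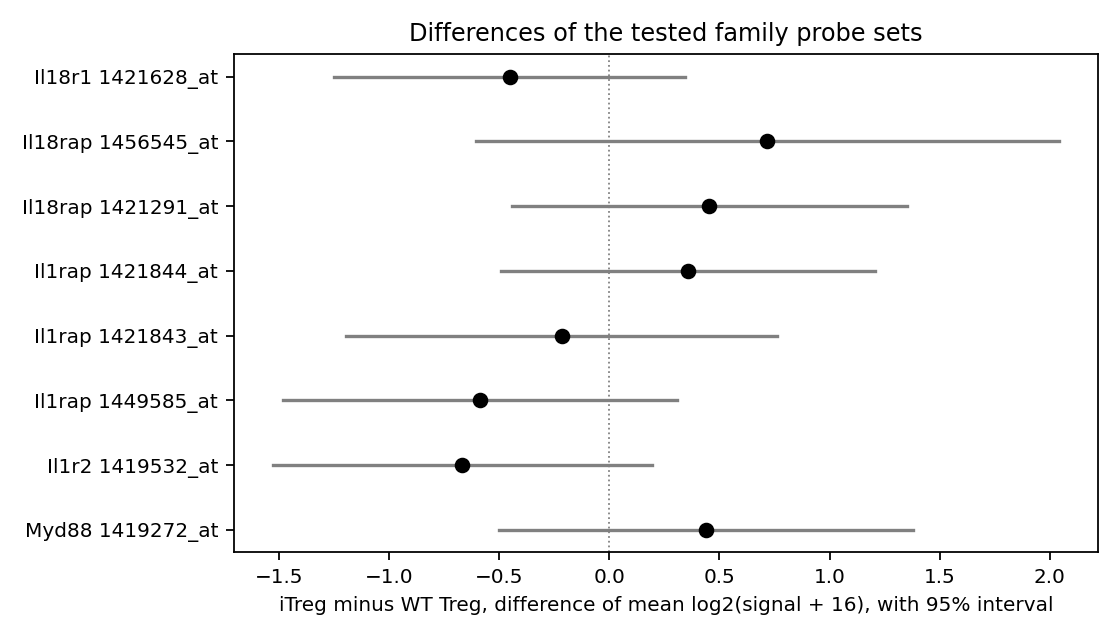
Difference of mean log2(signal + 16), iTreg minus WT Treg, for the 8 tested probe sets, with the 95% interval of the limma fit. All 8 intervals include 0, and the widest is that of Il18rap 1456545_at, from -0.61 to 2.04.

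**Figure D3:**
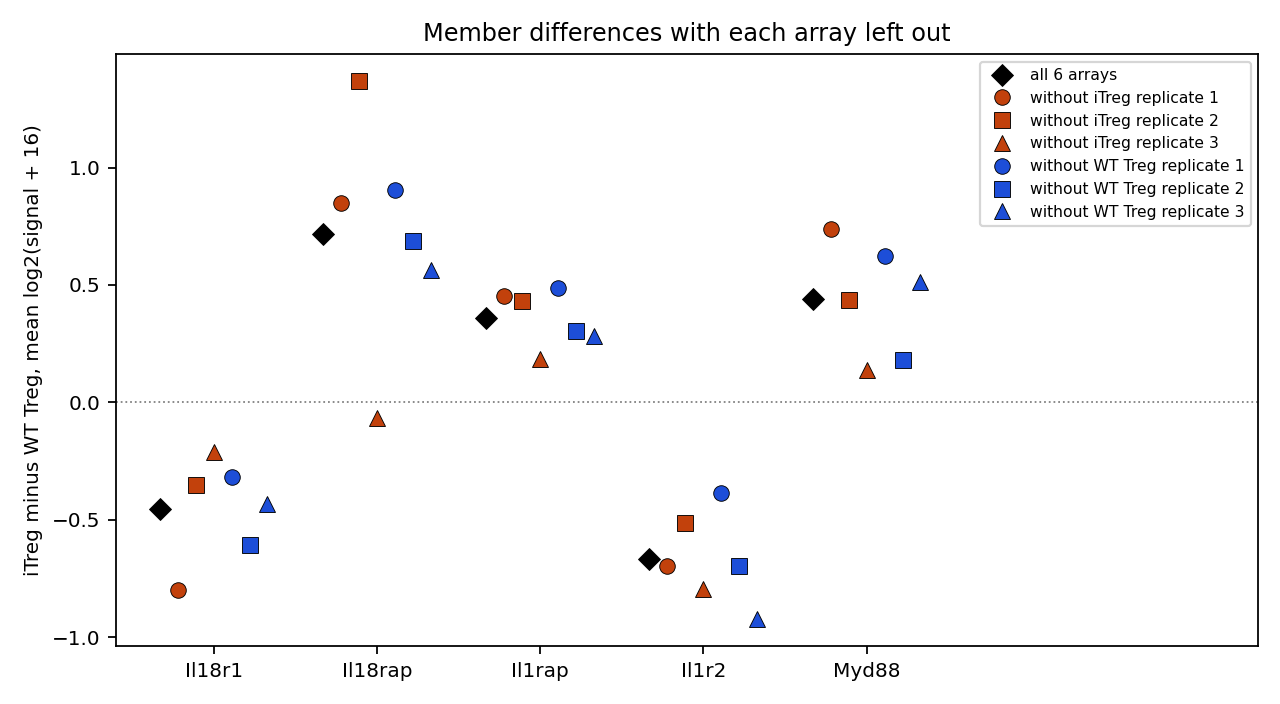
Difference of mean log2(signal + 16), iTreg minus WT Treg, for the 5 tested genes with all 6 arrays (diamonds) and without each array in turn (orange, iTreg array left out; blue, WT array left out). Il18rap spans -0.07 to 1.37 and is the gene that changes sign, without iTreg replicate 3.

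The intervals show what 3 arrays per group could and could not separate. For Il18r1 the interval's lower end was -1.25 and for Il1r2 -1.53, so a decrease of a log2 unit in iTreg is within both. For Myd88 the upper end was 1.38 and for Il1rap 1.21, so an increase of that size is also within them. A p above the threshold therefore does not show that the groups had equal levels.

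The receptor genes also share a place in the genome. In the RefSeq annotation of GRCm38.p6, Il1r2, Il1r1, Il1rl2, Il1rl1, Il18r1 and Il18rap neighbour each other in that order on chromosome 1, with no other protein-coding gene between them, while Il1rap and Myd88 lie on chromosomes 16 and 9. Il18r1 was above the control range on all arrays, and Il1r1 and Il1rl2, from the same cluster, were within it except for Il1rl2 on WT replicate 1. The signed differences of the 3 tested cluster genes were negative for Il1r2 and Il18r1 and positive for the brighter Il18rap probe set.

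As a description, the tested genes whose log2 values over the 6 arrays were most like those of Il18r1 were Smc2, a condensin subunit (Pearson r = 0.990), Ypel1 (0.989), Spef1 (0.983) and Irs2, an insulin receptor substrate (0.982). Those most like Il18rap were the mitochondrial carrier Slc25a39 (0.996), Efr3a (0.994), Cenpb, a centromere protein (0.990), and Ap1ar (0.989). Without iTreg replicate 3, the array farthest from the median in both cases, the values were 0.966 to 0.992 for the 4 genes like Il18r1 and 0.931 to 0.986 for the 4 like Il18rap. These genes were picked as the highest over only 6 arrays, and such values can arise from the picking alone. The values without iTreg replicate 3 use arrays that served in the picking and are no separate check.

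Genes around the receptors were counted in 7 lists, with 1 probe set a gene, the brightest, over 10916 genes tested. These lists hold 48 tested genes. limma called 0 of them at an adjusted p under 0.05, against 0.0275% of all genes tested, and 6 had an unadjusted p under 0.05, that is 12.5%, against 7.59% of all genes. The 6 were Klrg1, Il10, Maf, Il2ra and Irf4 of the IL-33 list and Eomes of the list for IL-1 and IL-18. All 7 lists were chosen with earlier results of these data known, so the pooled share is no independent evidence. The median log2 difference was -0.04 over the 48 genes and -0.03 over all genes tested.

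The measured ligands were near background in these cells. Il36a, Il36b, Il36g and Il36rn of the IL-36 group had no probe set with 1 symbol and were not analysed here. Il1a, Il1b, the receptor antagonist Il1rn, Il18, Il33 and Il1f10 stayed within the control range on every array, the highest being Il1b at 21.8 on WT replicate 2. Il18bp, a secreted protein that captures IL-18, was above the range on all arrays, at 80.4, 93.1 and 68.3 in iTreg, against 137, 53.6 and 29.8 in WT Treg. The WT arrays spanned the iTreg values, and the log2 difference of 0.29 (limma adjusted p = 0.911) was negative without WT replicate 3. Sigirr, a member of the family that dampens its signals, was the one other receptor above the range. It was at 294, 263 and 344 in iTreg, against 356, 405 and 455 in WT Treg. Every iTreg array was below every WT array, as in 7.78% of all genes tested (groups parted in either direction in 12.9%, with iTreg higher in 5.10%). The log2 difference was -0.41 with a standard error of 0.30 and an interval from -1.07 to 0.24 (limma adjusted p = 0.794), and it was -0.51 to -0.33 without single arrays. Il1rapl1 and Il1rapl2, known from neurons, were within the control range on all arrays.

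In the signalling chain behind Myd88, Irak4 and Peli3 of the 18 listed genes had no probe set with 1 symbol. They were not analysed here. By their brightest probe set, 12 of the 16 others were above the control range on all arrays. Over all probe sets with 1 symbol, not picked as brightest, the share was 41.4%. Of 14 tested, 0 passed in either direction, 5 differences were positive and 9 negative, and the median was -0.04. The smallest p-values were those of Tirap, the adaptor that links Toll-like receptors to Myd88, with a log2 difference of 0.89, Tab2, a partner of the kinase Tak1, with 0.47, the kinase Irak2 with -0.64 and the ubiquitin ligase Traf6 with -0.42. Tirap was at 13.2, 71.6 and 109.4 in iTreg, against 15.0, 30.4 and 19.1 in WT Treg. It was within the control range on iTreg replicate 1 and on 2 WT arrays, and its difference was 1.50 without iTreg replicate 1 and 0.45 without iTreg replicate 3. Its other probe set, within the control range, differed by -0.42. Traf6 gave -0.72, -0.64 and -0.45 on 3 further probe sets and 0.36 on the fifth, and its difference was -0.11 without iTreg replicate 3. That of Irak2 was -0.33 without WT replicate 3, and that of Tab2 0.70 without iTreg replicate 2. Of the 5 tested genes that process IL-1 and IL-18, 3 differences were positive and 2 negative, with a median of 0.10. Their values were -0.41 for the inflammasome adaptor Pycard, 0.20 for the protease Casp1, 0.12 for Casp4 and -0.10 for the DNA sensor Aim2, and the sign of the last 3 changed with 1 array left out. The difference of Pycard was -0.81 without WT replicate 2 and -0.15 without WT replicate 3, and its other probe sets gave 0.11 and -0.20.

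Toll-like receptors use the same adaptor. Of 8 tested genes of their list 0 passed, 6 differences were positive and 2 negative, with a median of 0.10. Tlr1, a partner of Tlr2, was at 1206, 827 and 1671 in iTreg, against 728, 912 and 893 in WT Treg. It differed by 0.49 on the log2 scale (limma adjusted p = 0.751), by 0.25 without iTreg replicate 3 and by 0.75 without iTreg replicate 2. Tlr2 differed by 0.49 with signals of 12.6 to 47.8 in iTreg and 2.32 to 30.3 in WT Treg, by 0.09 without WT replicate 3 and by 1.07 at a pseudocount of 1. Tlr4, the receptor for lipopolysaccharide, differed by -0.99 on its brightest probe set, with 3.69 to 23.2 in iTreg, against 103.3 on WT replicate 2 and at most 32.7 on the other WT arrays. Without WT replicate 2 the difference was -0.46. The other 3 probe sets of Tlr4 gave -0.01, 0.36 and 0.37, so no direction can be given. Its co-receptor Ly96 differed by 1.05, and by 0.12 without iTreg replicate 3, whose value is given above.

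**Figure D4:**
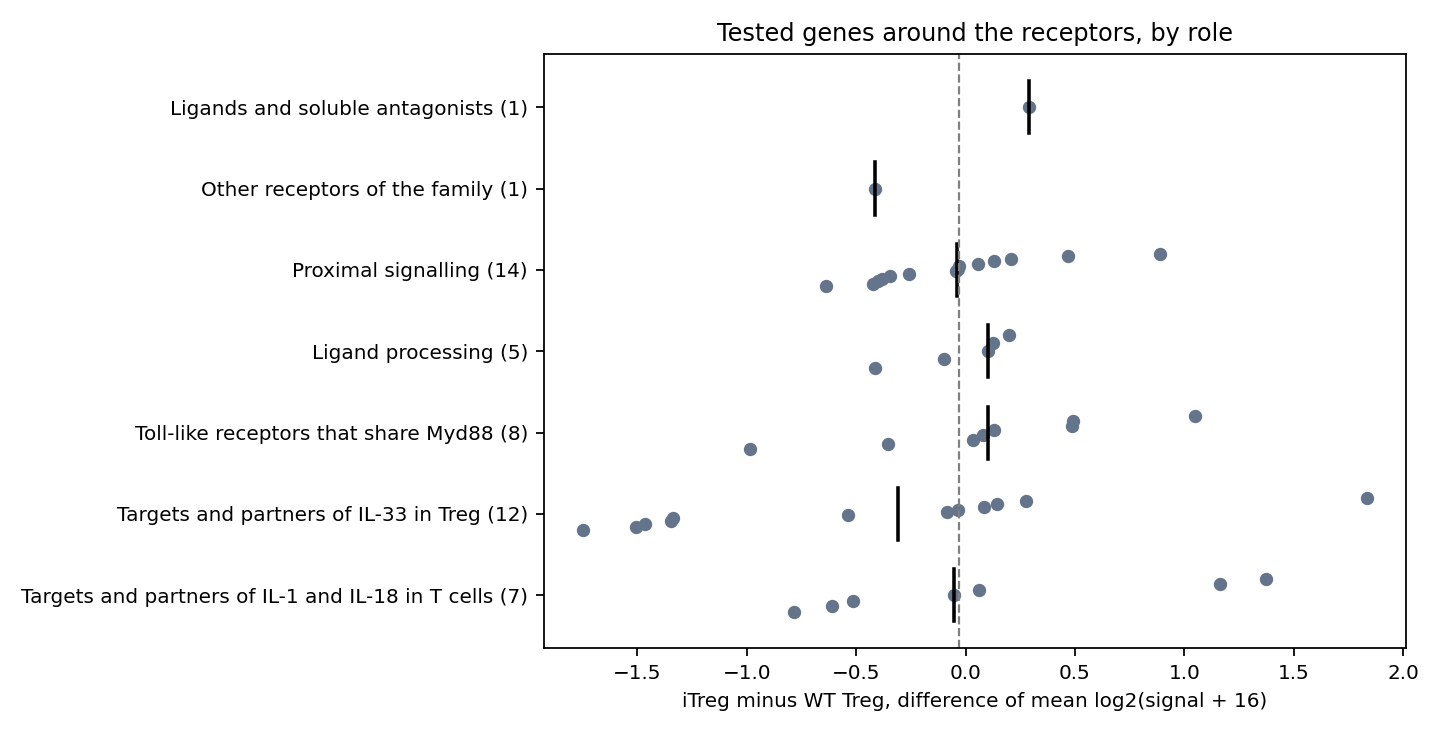
Difference of mean log2(signal + 16), iTreg minus WT Treg, for each tested gene of 7 lists (number tested in brackets). Short lines are list medians and the dashed line is the median over 10916 genes, -0.03; the widest spread is in the IL-33 list, from -1.75 for Il10 to 1.83 for Klrg1.

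Genes known to act with IL-33 in Treg pointed both ways. Of 12 tested, 0 passed, 4 differences were positive and 8 negative, with a median of -0.31. Of the 12, 5 had an unadjusted p under 0.05, Klrg1 with a positive difference and Il10, Maf, Il2ra and Irf4 with negative ones, against 7.59% of all genes in either direction. The list was chosen with earlier results of these data known, and its share is no independent evidence of a direction. Klrg1, an inhibitory receptor found on ST2-positive Treg, was at 995, 1036 and 1195 in iTreg, against 458, 258 and 203 in WT Treg. It differed by 1.83 on the log2 scale (limma adjusted p = 0.0996). Il10, a suppressive cytokine, was within the control range on all iTreg arrays, with at most 6.03, and at 83.7, 36.3 and 36.0 in WT Treg, differing by -1.75 on the log2 scale (limma adjusted p = 0.148). With iTreg signals that low, the size has no firm value and was -3.76 at a pseudocount of 1 and -0.76 at 64. Maf, a transcription factor that drives Il10, differed by -1.34 (limma adjusted p = 0.172), with -1.77 to -0.50 on its 5 other probe sets, and Il2ra, the alpha chain of the IL-2 receptor, by -1.35 (limma adjusted p = 0.228). Groups did not overlap for these 4 and for Irf4, that is 5 of 12, against 12.9% of all genes tested in either direction. Il10 passed the filter on low signals only through its WT arrays. Its place in this count and among the small p-values is therefore no support for a difference. Gata3, which activates Il1rl1 in Treg and Th2 cells, was at 316, 114 and 431 in iTreg, against 169, 135 and 369 in WT Treg, with overlapping groups and a log2 difference of 0.28 (limma adjusted p = 0.920).

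Of the 7 tested genes that act with IL-1 or IL-18 in T cells, 0 passed, 3 differences were positive and 4 negative, with a median of -0.05. Groups parted without overlap in 2 of the 7, against 12.9% of all genes tested (5.10% with iTreg higher, 7.78% with iTreg lower). Eomes, a T-box factor of Th1-like and cytotoxic cells, was at 248, 179 and 364 in iTreg, against 99.8, 129 and 51.03 in WT Treg, without overlap. The difference was 1.37 on the log2 scale (limma adjusted p = 0.457). Ifng, the cytokine that IL-18 induces together with IL-12, was at 146, 16.7 and 48.1 in iTreg, against 33.7, 17.0 and 2.55 in WT Treg. The groups overlapped, and the log2 difference of 1.16 (limma adjusted p = 0.681) was 0.55 without iTreg replicate 1. Ccr6, a chemokine receptor of Th17 cells, differed by -0.61 without overlap (limma adjusted p = 0.744), and by -0.36 without WT replicate 1. Il12rb2, the signalling chain of the IL-12 receptor, was within the control range on all arrays but WT replicate 1, at 130.2, and its log2 difference of -0.78 was 0.08 without that array. Tbx21, which drives Th1 cells, was at 5.73 to 23.6 in iTreg and 12.0 to 51.2 in WT Treg, with 1 array above the range.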

How the data were processed

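Groups and replicate numbers came from sample titles. What the authors deposited is a linear MAS5 intensity for each probe set, as the submitters' processing notes name the method; its version and the genome build are not given in the sources used here. All were above 0, and detection calls were not used. Of 45101 probe sets, 64 are controls; the platform annotation gave 34945 probe sets 1 symbol, 932 several and 9160 none, and the last 2 kinds were not analysed here. Signals were transformed as log2(signal + 16), and features whose mean was below the 40th percentile were dropped and the others tested with limma 3.58.1 in R 4.3.3 (eBayes with an intensity trend), two-sided, iTreg minus WT Treg, with Benjamini-Hochberg adjustment at 0.05. One fit took every probe set with 1 symbol, the other the brightest probe set of each gene. The limma step was tested on simulated data. The number of arrays limits the precision.

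Named were all members, up to 4 genes of each list with the smallest p, ligands above the control range, and the 4 genes most like Il18r1 and Il18rap; Gata3, Irf4, Tbx21, Il1rapl1, Il1rapl2 and the ligands within the range were named after their values were seen. Members and lists were chosen with earlier results of these data known. Alternatives were other pseudocounts, scalings, filters, variance models, array weights, probe set rules, the replicate number as a block and arrays left out.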

Additional observations from a re-analysis of the deposited data

How the results depend on the processing

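No alternative called any of the 5 tested member genes, whose adjusted p ranged from 0.430 to 0.997, and Il18r1, Il1r2 and Myd88 kept their sign in all 20 alternatives; with the filter at the 60th percentile, Il18rap, Il1rap and Il1r2 were too dim to be tested. Il18rap turned to -0.22 without both replicate 3 arrays and ranged from -0.065 to 1.37 without single arrays, and Il1rap turned to -0.10 with the mean of probe sets. Of the named list genes, Casp4 (-0.10) and Aim2 (0.011) turned with array weights. Without both replicate 3 arrays Casp4 gave -0.43, Aim2 0.17, Il18bp -0.0069 and Ly96 -0.0080, and Il12rb2 gave 0.047 without both arrays with label doubts. Without single arrays the ranges were -0.10 to 0.77 for Il18bp, -0.37 to 0.62 for Casp1, -0.30 to 0.40 for Casp4, -0.42 to 0.34 for Aim2 and -1.28 to 0.076 for Il12rb2. The cause was not tested.

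Over all genes, 3 were called, all lower. The count was 0 with a pseudocount of 1, without a filter, without both arrays with label doubts and without both replicate 3 arrays, 8 (1 higher, 7 lower) with median scaling, 14 (1 higher, 13 lower) with array weights, and 0 to 1 without single arrays. Over all probe sets, 4 were called; the count was 1 without a filter, 0 without both arrays with label doubts, 1 without both replicate 3 arrays, and 0 to 2 without single arrays. The member probe sets above the control range on all arrays were 3; they were 5 against the highest control of the same array, 5 against the 95th percentile of the controls (12.7), and 3 to 5 without single arrays. For the probe sets and the control range, leaving out arrays and the block were chosen after seeing the data. The replicate number as a block gave 3 genes and 1 probe set; Il18r1 then had an adjusted p of 0.721. Same-numbered arrays share only a number: their deviations from the group means correlated at 0.169, 0.0456 and 0.130. No scaling moved the median of all genes by over 0.1. Signals within the control range limit what can be read for Il1r1, Il1rl2, Il1r2 and Il18rap.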
